A study of Saccharomyces cerevisiae with 15 samples.

Results

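Transcript levels of budding yeast fed L-phenylalanine as the only nitrogen source were set against those of yeast fed L-proline. The arrays were chosen by their titles: the 3 that name phenylalanine and the 3 that name proline, which are 6 of the 15 arrays of the series. All cultures were the haploid, prototrophic Saccharomyces cerevisiae strain CEN.PK113-7D (MATa), a laboratory strain that makes all its own amino acids, with no deletion or added gene given. They grew in aerobic chemostats, vessels in which the rate of medium supply sets the growth rate, here 0.10 per hour, at 30 °C and pH 5.0. Glucose (7.5 g/l) limited growth. The medium held 5.0 g/l phenylalanine or 8.8 g/l proline, and both media also held 6.6 g/l potassium sulfate. The other 9 arrays came from cultures on leucine (10.0 g/l), methionine (11.3 g/l) and asparagine (5.0 g/l), 3 each. They served here to estimate the spread and to place the levels. The series addresses how yeast responds to preferred and non-preferred nitrogen sources. Both sources compared here are usually classed as non-preferred, and 1 strain represents the species.

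Yeast takes nitrogen from phenylalanine by the Ehrlich pathway. A transaminase moves the amino group to a keto acid, the remaining phenylpyruvate is decarboxylated to an aldehyde, and the aldehyde leaves the cell as a fusel alcohol or a fusel acid. Proline takes another route: proline oxidase and a dehydrogenase in the mitochondrion turn it into glutamate, whose carbon can enter the tricarboxylic acid cycle. Genes for poor nitrogen sources are held down by nitrogen catabolite repression, which acts through GATA transcription factors, while external amino acids other than proline induce many permeases through the SPS sensor of the plasma membrane.

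The values are MAS5 signals, 1 linear intensity per probe set and array, and the number of arrays limits their precision. The median signal was 38.4 to 47.7 on the phenylalanine arrays and 48.1 to 49.8 on the proline arrays. Signals correlated at 0.960 to 0.971 among phenylalanine arrays, 0.975 to 0.987 among proline arrays and 0.938 to 0.963 between the groups. The median standard deviation within a group was 0.30 on the log2 scale with phenylalanine and 0.17 with proline. The hybridisation controls, which are added to each sample, averaged 198 to 808 with phenylalanine and 120.2 to 172 with proline, so the groups did not overlap. The ratio of 3' to 5' actin signal, a measure of RNA integrity, was 2.02, 3.35 and 3.06 with phenylalanine and 1.72, 1.59 and 2.38 with proline. The part of these technical measures in the results was not tested beyond fits that hold them as covariates. Phenylalanine array 1 has a scan record that calls it a repeat scan after scanner servicing, and the sample codes of phenylalanine arrays 1 and 3 belong to another style than the codes of the other 13 arrays. The mating type was checked in part. MFA1, a gene for the a-factor pheromone on a probe set that shares sequence, gave 1609.8, 2271 and 3156 with phenylalanine and 1015, 1520.3 and 1379 with proline. The 4 genes specific to alpha cells stayed between 4.1 and 134.9 with phenylalanine and between 3.7 and 110.5 with proline. MFA2 was bright too, but not all 7 measured a-specific genes were. With asparagine STE6 gave 48.3, 64.8 and 67.8 and ASG7 25.2, 14.6 and 24.6. The alpha-specific SAG1 gave 119.3, 119.7 and 150.7 there, so the check rests on the pheromone genes.

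Of 7445 probe sets tested with limma at an adjusted p of 0.05, 610 (8.19%) were higher and 942 (12.7%) lower with phenylalanine than with proline. Counted by gene, 437 of 5384 genes (8.12%) were higher and 772 (14.3%) lower, and the median log2 difference of all genes was -0.08. Of all probe sets 20.8% and of all genes 22.5% were called in either direction. Groups that did not overlap were common: 726 of the 5384 genes had every phenylalanine array above every proline array, and 1192 had every one below. At least 2-fold changes numbered 96 genes higher (1.78%) and 271 lower (5.03%), 6.82% in all, and 177 probe sets higher (2.38%) and 382 lower (5.13%), 7.51% in all. The split depends on the scale: with each array centred on its median, which moved the median difference of all probe sets from -0.05 to 0.13, 1007 probe sets were higher and 589 lower. With the hybridisation control signal as a covariate, 241 were higher and 331 lower. Among genes with both group means above 10.0, the level under which only bounds are given, the largest log2 differences were 5.76 upward, at ARO10, and -6.28 downward, at GRE1.

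**Figure D1:**
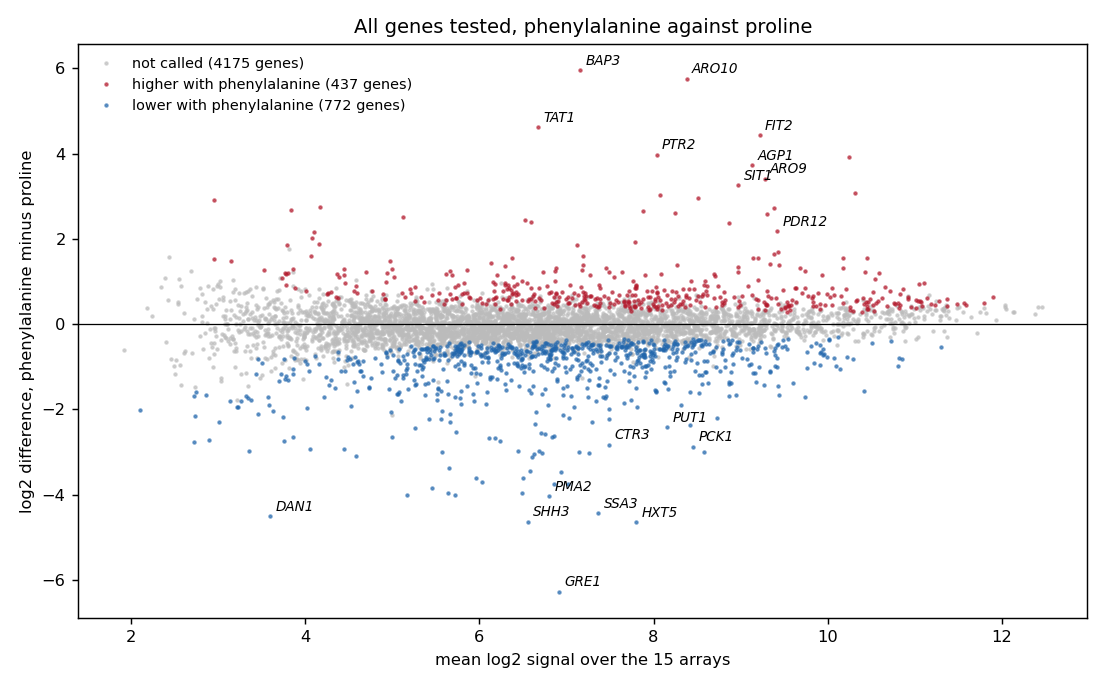
Log2 difference (phenylalanine minus proline) of the 5384 genes against their mean log2 signal over the 15 arrays, with genes called higher in red, called lower in blue and not called in grey. BAP3, whose proline signal lies in the range where only a bound is given, and ARO10 lie at the top near 6, and GRE1 lies at the bottom beyond -6.

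The genes of phenylalanine breakdown split within the transaminase step and within the decarboxylase step. ARO9 and ARO10, the transaminase and the decarboxylase that aromatic amino acids induce, and ARO80, the gene of the factor that activates both, rose with phenylalanine. The other decarboxylase genes did not rise. Of the 10 genes of the list, 4 were higher and 3 lower, with a median log2 difference of 0.02.

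ARO9 encodes the aromatic aminotransferase that opens the pathway. Its signal was 1840.1, 1643 and 2027 with phenylalanine and 178, 162 and 176 with proline, a 10.6-fold difference (log2 3.41 ± 0.12, SE; limma, adjusted p = 2.0e-11). ARO10, the phenylpyruvate decarboxylase, gave 1778, 2035 and 2176 with phenylalanine and 29.4, 40.2 and 42.1 with proline. Its difference was 54.1-fold (log2 5.76 ± 0.17, adjusted p = 2.5e-12), and every phenylalanine array lay far above every proline array. ARO80 was dim, at 34.3, 41.8 and 49.2 with phenylalanine and 11.8, 10.6 and 11.1 with proline, and was 3.70-fold higher (adjusted p = 1.5e-05). With the other sources ARO10 averaged 1046 ± 168 with leucine, 896 ± 71.2 with methionine and 60.9 ± 10.6 with asparagine (SD, n = 3 each). ARO9 gave 1205.8, 1235.5 and 976.2 with leucine, 822.5, 851.9 and 778.2 with methionine and 304.3, 297.8 and 345.1 with asparagine. ARO80 differed little among these 3 sources. It gave 18.7, 17.7 and 15.2 with leucine, 12.5, 14.8 and 19.1 with methionine and 16.1, 14.0 and 15.7 with asparagine.

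Among the other transaminases, BAT2, which acts on branched-chain amino acids in the cytosol, rose 1.81-fold, with 1065, 1019.8 and 1174 on the phenylalanine arrays and 569, 523 and 725 on the proline arrays (adjusted p = 0.00059). Its mitochondrial counterpart BAT1 averaged 534 ± 96.2 with phenylalanine and 531 ± 23.6 with proline and was not called. ARO8, the aminotransferase that also serves aromatic synthesis, was slightly lower at 685, 849 and 694, against 977, 955 and 912 with proline (log2 -0.36 ± 0.12, adjusted p = 0.043), and that call was lost in 13 of the alternative settings. Among the pyruvate decarboxylases PDC6 fell 3.11-fold, to 29.5, 25 and 19.6, against 77.8, 83.8 and 66.7 with proline. PDC1, the main fermentative enzyme, gave 889, 578 and 1217 with phenylalanine and 1372, 1443 and 1701 with proline, and was 1.75-fold lower (adjusted p = 0.0079). The PDC1 call was lost with median centring and when only the 6 arrays were fitted. PDC5 and THI3 were not called, with PDC5 at 123, 63.0 and 74.4 with phenylalanine and 78.8, 74.4 and 90.0 with proline in overlapping ranges.

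**Figure D2:**
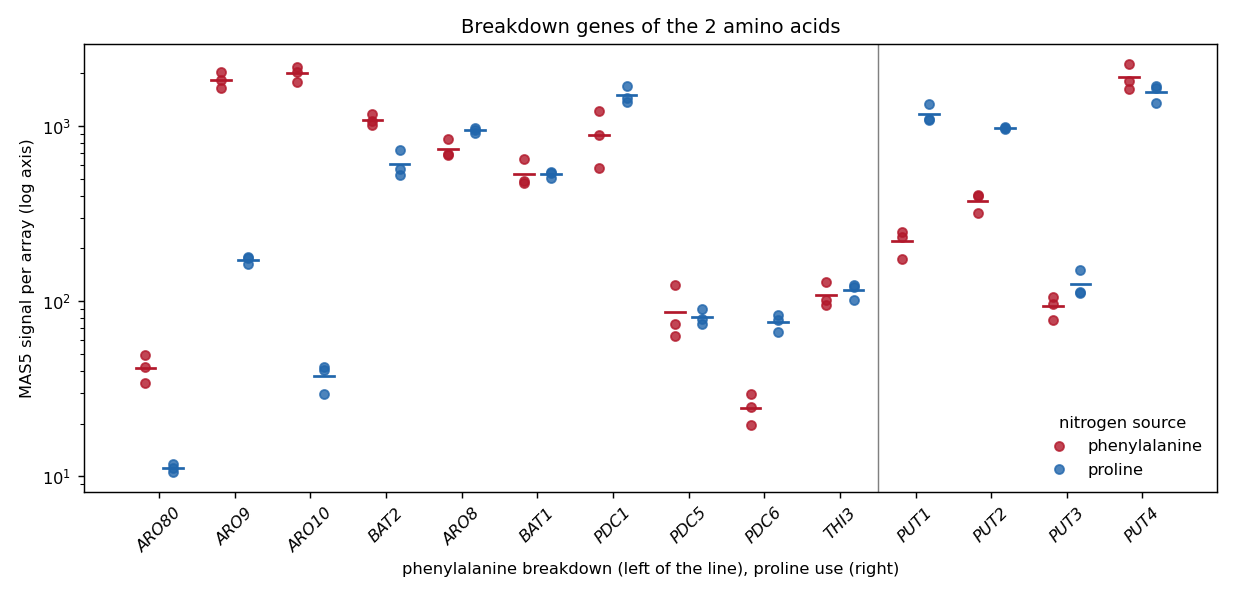
MAS5 signal of each phenylalanine (red, left) and proline (blue, right) array on a log axis, for the 10 genes of phenylalanine breakdown and the 4 of proline use, with bars at the group means. The groups lie furthest apart at ARO10, and PUT1 and PUT2 are the genes of proline use whose groups differ most.

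The 2 enzymes of proline breakdown were lower with phenylalanine, and the genes for uptake and regulation were not called. PUT1, proline oxidase, gave 233, 175 and 249.5 with phenylalanine and 1092, 1079 and 1334 with proline. It was 5.37-fold lower (log2 -2.42 ± 0.17, adjusted p = 6.3e-08). PUT2, the pyrroline-5-carboxylate dehydrogenase that completes the route to glutamate, gave 402, 399.8 and 320.2 with phenylalanine and 969, 989.9 and 961 with proline, 2.62-fold lower (adjusted p = 5.0e-07). For neither gene did the arrays of the groups overlap. PUT4, the proline permease, averaged 1898 ± 319 with phenylalanine and 1572 ± 189 with proline (adjusted p = 0.18). PUT3, the activator of PUT1 and PUT2, averaged 93.2 ± 13.7 with phenylalanine and 125 ± 22.2 with proline (adjusted p = 0.069). PUT1 was not at its lowest with phenylalanine, since it averaged 163 ± 8.90 with leucine and 73.9 ± 16.6 with asparagine, and with methionine it averaged 641 ± 63.6 (SD, n = 3 each).

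Enzymes that can take the aldehyde further, and the pumps that can remove its products, moved in both directions. Of 18 measured alcohol and aldehyde dehydrogenases 3 were higher (ADH4, ADH5 and ALD4) and 7 lower, beside 8.12% higher and 14.3% lower among all genes. The higher count was 1 without proline array 1 or with the actin ratio as a covariate. It was 0 when only the 6 arrays were fitted and with the hybridisation control signal as a covariate. GRE2, a reductase also known as a stress gene, fell 6.38-fold to 32.8, 32.9 and 42.0, against 240.5, 176 and 278 with proline. ALD2 and ALD3, cytosolic aldehyde dehydrogenases, averaged 22.7 ± 0.862 and 31.3 ± 14.4 with phenylalanine and 69.1 ± 3.40 and 101 ± 10.7 with proline. ALD6, the main cytosolic acetaldehyde dehydrogenase, was 2.16-fold lower and SFA1, an alcohol dehydrogenase that acts on long-chain alcohols and on formaldehyde bound to glutathione, 2.47-fold lower.

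PDR12, a pump for weak organic acids that is known to export fusel acids, was higher with phenylalanine. Its signals were 1666, 1939 and 2195 with phenylalanine and 411, 600.5 and 306 with proline, a 4.54-fold difference (log2 2.18 ± 0.33, adjusted p = 0.00020), and the groups did not overlap. WAR1, the gene of its activator, averaged 63.4 ± 4.06 with phenylalanine and 68.6 ± 11.0 with proline and was not called. ESBP6, a member of the monocarboxylate permease family, rose 2.55-fold, with 836, 917 and 638 on the phenylalanine arrays and 300.5, 327 and 301 on the proline arrays. Of the 25 measured genes of the export list, whose members are not all pumps, 5 were higher and 8 lower. PDR10 fell 4.42-fold, FLR1 2.75-fold and SNQ2 2.34-fold. YRO2, which is not known as a pump, fell 5.20-fold.

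Targets of nitrogen catabolite repression were mostly lower with phenylalanine. Of 39 measured genes 21 were lower and 8 higher, with a median log2 difference of -0.52, against 14.3% lower and 8.12% higher among all genes. With the hybridisation control signal as a covariate 12 were lower and 5 higher. Many of these targets are also counted under other headings, so the counts are not separate. The 21 lower genes include PUT1, PUT2, UGA3, UGA4, GDH2, GLT1, MEP2 and the 7 lower allantoin and urea genes. The 8 higher genes include BAT2, DIP5, GAP1, GDH3, GLN1, MEP3 and OPT2. The GATA factors themselves differed in part. DAL80, a GATA repressor that is itself repressed by good nitrogen sources, gave 41.5, 44.7 and 74.2 with phenylalanine and 168, 166 and 149.9 with proline, 3.12-fold lower (adjusted p = 0.015). The call was lost with the hybridisation, actin or SPT15 measure as a covariate, with the lowest values raised only to 1, and with phenylalanine arrays 1 and 3 left out. GAT1, an activator, was 1.71-fold higher, at 514, 706 and 656 with phenylalanine and 386, 343 and 359 with proline (adjusted p = 0.0088), a call lost with the hybridisation or actin measure as a covariate. GLN3, GZF3 and the regulator gene URE2 were not called, and averaged 13.1, 83.4 and 149 with phenylalanine and 20.2, 89.7 and 179 with proline.

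The allantoin and urea genes fell as a group: 7 of 10 measured were lower and 1 was higher, with a median log2 difference of -1.12. DAL4, the allantoin permease, gave 32.3, 35.1 and 24.4 with phenylalanine and 147, 147 and 132 with proline and was 4.70-fold lower (adjusted p = 2.2e-07). DAL1, allantoinase, was 3.67-fold lower, DAL7, a malate synthase, 3.10-fold lower and DAL3, ureidoglycolate lyase, 2.18-fold lower. DAL5, the allantoate permease, gave 151, 148 and 265 with phenylalanine and 504, 533 and 631 with proline, and 1 of its 2 other probe sets was not called. The exception was DAL81, an activator shared with the SPS pathway, which was 1.64-fold higher. UGA4, the permease for GABA, fell 4.17-fold to 12.2, 17.1 and 11.2, against 50.8, 76.0 and 43.9 with proline, and 3 of the 5 genes of GABA use were lower.

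The genes that fix and release ammonium moved apart. GDH3, the minor NADP-dependent glutamate dehydrogenase, rose 2.67-fold, with 1127, 1561 and 1598 on the phenylalanine arrays and 468, 576 and 548 on the proline arrays (adjusted p = 4.0e-06). Its major counterpart GDH1 averaged 1502 ± 219.9 with phenylalanine and 1366 ± 28.0 with proline and was not called. GLT1, glutamate synthase, was 1.77-fold lower, and GDH2, which releases ammonium from glutamate, 1.45-fold lower. GLN1, glutamine synthetase, was 1.46-fold higher, although that call and the one for GDH2 were each lost in several alternatives. Among the ammonium permeases MEP3 rose 2.62-fold, to 246, 236 and 222, against 81.1, 93.2 and 94.2 with proline, whereas MEP2 was 1.43-fold lower at 759, 814 and 897, against 1164, 1183 and 1175 with proline, a call lost in 5 alternatives, median centring among them. GAP1, the general amino acid permease, was 1.28-fold higher (adjusted p = 0.047), a call that most alternatives did not keep.

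Amino acid permease genes contained several of the largest increases. Of 23 measured, 9 were higher and 2 lower, with a median log2 difference of 0.35. The 9 were AGP1, BAP2, BAP3, DIP5, GAP1, GNP1, MUP1, TAT1 and TAT2, and the 2 were AGP3 and BIO5. BAP3, a permease for branched-chain and aromatic amino acids, gave 264, 358 and 249 with phenylalanine and 2.8, 5.9 and 5.9 with proline. Since the proline mean lay below 10.0, the 25th percentile of all signals, the difference is given as at least 28.7-fold (adjusted p = 9.3e-11). TAT1, a tyrosine and branched-chain permease, gave 223, 197 and 161 with phenylalanine and 7.8, 7.0 and 8.7 with proline, at least 19.2-fold higher.

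AGP1, a permease of broad range, rose 13.3-fold, with 993, 1279.9 and 1471 on the phenylalanine arrays and 82.8, 104 and 93.4 on the proline arrays. DIP5, which carries acidic amino acids, gave 2316, 2419.7 and 2752 with phenylalanine and 301, 339 and 257 with proline, 8.38-fold higher. MUP1, the high-affinity methionine permease, gave 536, 668 and 328 with phenylalanine and 55.5, 72.2 and 54.7 with proline, 8.12-fold higher. For all of these the groups did not overlap. The proline cultures had the lowest mean of the 5 sources for BAP3, TAT1, AGP1, DIP5 and MUP1: asparagine, for example, gave a mean of 299 for BAP3, 289 for TAT1, 336 for AGP1, 837 for DIP5 and 644 for MUP1.

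Of 5 genes of peptide transport and its control 2 were higher, PTR2 and OPT2, and 0 were lower by limma (1 at an unadjusted p under 0.05). PTR2, the transporter of di- and tripeptides, gave 1097, 385 and 648 with phenylalanine and 45.8, 43.7 and 35.2 with proline, 15.7-fold higher (adjusted p = 4.4e-08), although its phenylalanine arrays varied widely. OPT2, an oligopeptide transporter gene, was 5.45-fold higher, at 134, 200.1 and 199.8 with phenylalanine and 32.0, 30.1 and 34.3 with proline. OPT1, another oligopeptide transporter gene (log2 -0.11, adjusted p = 0.86), CUP9, the repressor of PTR2, and UBR1, which degrades that repressor, were not called. Of the 7 genes of the SPS sensor pathway 1, DAL81, was higher and 1, the protease gene SSY5, was 1.68-fold lower. Among all genes 8.12% were higher and 14.3% lower, so these counts lie close to the shares of all genes. The call of SSY5 was lost with the hybridisation control as a covariate and with phenylalanine arrays 1 and 3 left out.

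Genes of amino acid synthesis were called in both directions, beside 8.12% higher and 14.3% lower among all genes. Of 34 measured genes of general amino acid control 3 were higher, close to the share of all genes, and 7 lower. Within it 3 lysine genes were lower: LYS4, homoaconitase, was 2.62-fold lower at 219, 142 and 133, against 463, 371 and 432 with proline, LYS9, a saccharopine dehydrogenase, 2.59-fold lower and LYS1, the last enzyme of the pathway, 2.20-fold lower. Of 16 measured genes of proline and arginine synthesis and arginine use 4 were higher and 2 lower, and the lower count was 0 without phenylalanine array 1 or any of the proline arrays. ARG1, argininosuccinate synthetase, was 2.07-fold higher, at 1725, 1916 and 3376 with phenylalanine and 1029.6, 1083 and 1126 with proline. ARG3, ornithine carbamoyltransferase, was 1.84-fold higher and ARG80, a regulator of arginine genes, 2.36-fold higher. With the hybridisation control as a covariate ARG1 and ARG3 lost their calls and 1 of the 16 was higher. Of 13 genes of branched-chain synthesis 4 were higher and 0 lower by limma, with LEU4, an isopropylmalate synthase, 1.63-fold higher. With median centring 8 of them were higher. Without proline array 1 there were 2 higher, LEU4 no longer among the calls, and 0 of the 13 were lower at an unadjusted p under 0.05. Of 12 genes of aromatic synthesis 1 was lower, a smaller share than the 14.3% of all genes. That gene was TRP2. Its call was lost in 15 of 21 alternatives, among them the ones without phenylalanine array 1 or 3 or any of the proline arrays, and without phenylalanine array 2 or 3 the count was 2. ARO3 and ARO4, the enzymes of entry to the pathway, averaged 98.6 ± 13.2 and 519 ± 121 with phenylalanine and 101 ± 10.7 and 644 ± 44.6 with proline.

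**Figure D3:**
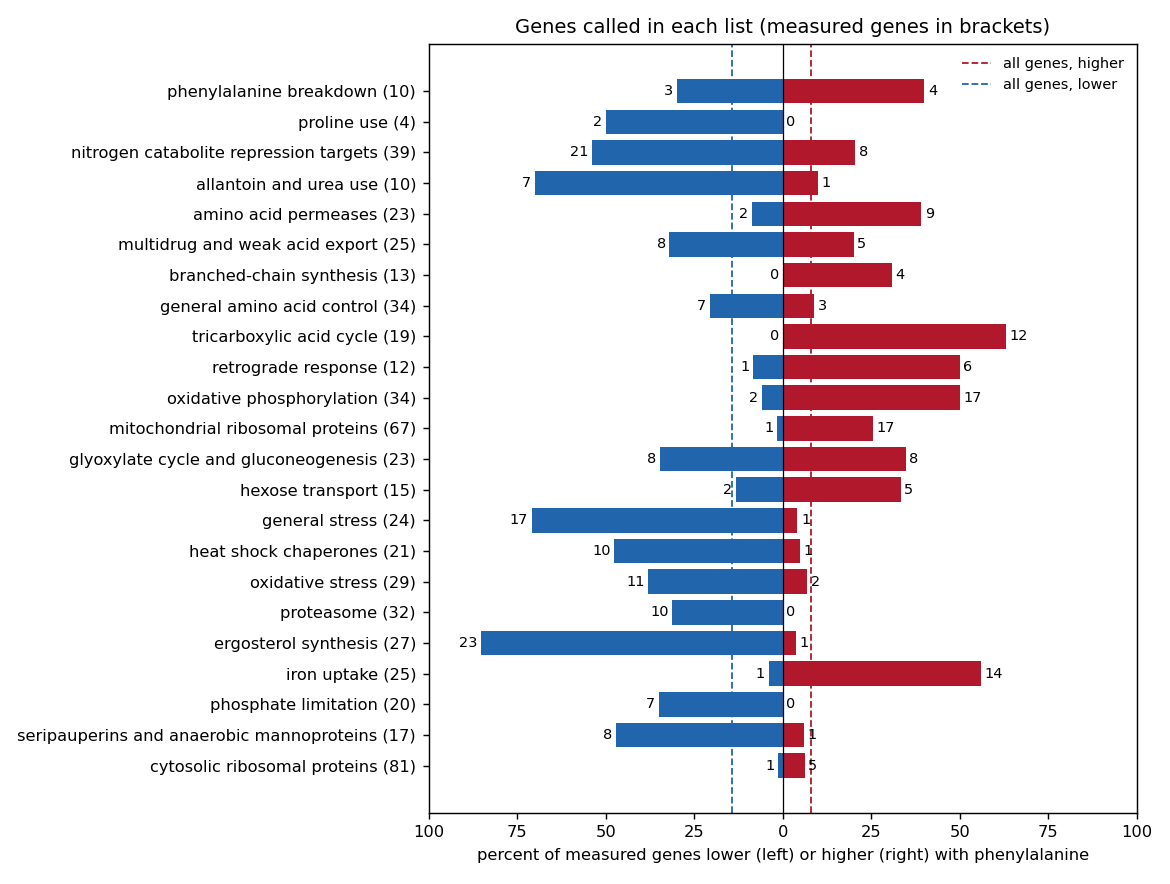
Percent of the measured genes of 23 lists called lower (blue, left) or higher (red, right) with phenylalanine, with the counts at the bar ends and dashed lines at the shares of all genes (14.3% lower, 8.12% higher). The bars for ergosterol synthesis and general stress reach furthest left (23 and 17 genes), and that for the tricarboxylic acid cycle furthest right (12 genes).

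Genes of the tricarboxylic acid cycle were higher with phenylalanine. Of 19 measured 12 were higher and 0 lower by limma, with a median log2 difference of 0.49. At an unadjusted p under 0.05 18 were higher and 0 lower, but the share of all genes at that threshold is not given. The 12 were ACO1, CIT1, CIT3, FUM1, IDH1, IDH2, IDP1, KGD1, LPD1, SDH1, SDH2 and SDH4. CIT3, a mitochondrial enzyme that makes citrate and 2-methylcitrate, gave 894, 884 and 1473 with phenylalanine and 146, 117 and 144 with proline, 7.79-fold higher (adjusted p = 6.6e-08). CIT1, the main mitochondrial citrate synthase, gave 2374, 3188 and 3609 with phenylalanine and 1443, 1656 and 1619.5 with proline, 1.92-fold higher. IDH1, a subunit of the NAD-dependent isocitrate dehydrogenase, rose 2.60-fold, to 1195, 1040.0 and 1331, against 393, 529 and 456 with proline, and its partner IDH2 rose 1.82-fold. KGD1, of the oxoglutarate dehydrogenase complex, was 1.61-fold higher. The count was 6 when only the 6 arrays were fitted and 7 with the hybridisation control as a covariate.

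The retrograde response, by which yeast adjusts the supply of oxoglutarate and glutamate to the state of its mitochondria, was higher in its target genes. CIT2, peroxisomal citrate synthase and the classic target, gave 1105, 1528 and 1743 with phenylalanine and 249.5, 219 and 249 with proline, 6.00-fold higher (log2 2.59 ± 0.16, adjusted p = 2.6e-08). DLD3, a lactate and hydroxyglutarate dehydrogenase, gave 210.3, 226 and 289.7 with phenylalanine and 71.9, 61.1 and 67.0 with proline, 3.61-fold higher. Neither gene overlapped between the groups. The list of 12 held 6 higher genes and 1 lower (0 without phenylalanine array 3 or proline array 1 or 2), and 4 of the 6 (ACO1, CIT1, IDH1 and IDH2) also stand among the genes of the cycle. CIT2 averaged 1186 ± 112 with leucine, 1076 ± 121 with methionine and 237 ± 35.1 with asparagine (SD, n = 3 each).

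The respiratory chain and the ATP synthase were higher by smaller amounts. Of 34 measured genes 17 were higher and 2 lower, with a median log2 difference of 0.44, and the higher ones ranged from 1.27-fold to 1.79-fold. COX13, a subunit of cytochrome c oxidase, gave 1263, 1127 and 1276 with phenylalanine and 759, 737 and 716 with proline, 1.65-fold higher. CYC1, the main cytochrome c, was 1.46-fold higher and QCR9, of the cytochrome bc1 complex, 1.51-fold higher. The 2 lower genes were CYC7, the minor cytochrome c, at 39.5, 57.6 and 60.3 with phenylalanine and 121, 88.6 and 109 with proline, and NDE2, an external NADH dehydrogenase, at 121, 176 and 108 with phenylalanine and 373, 308 and 431 with proline. Of the 67 mitochondrial ribosomal protein genes 17 were higher and 1 lower, with a median of 0.26. These counts were not stable: with the hybridisation control as a covariate 4 of the 34 and 1 of the 67 were higher. When only the 6 arrays were fitted, 5 and 2 were higher. Without phenylalanine array 3 the 17 chain genes became 10, and leaving out a proline array left 9 to 11 ribosomal protein genes.

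**Figure D4:**
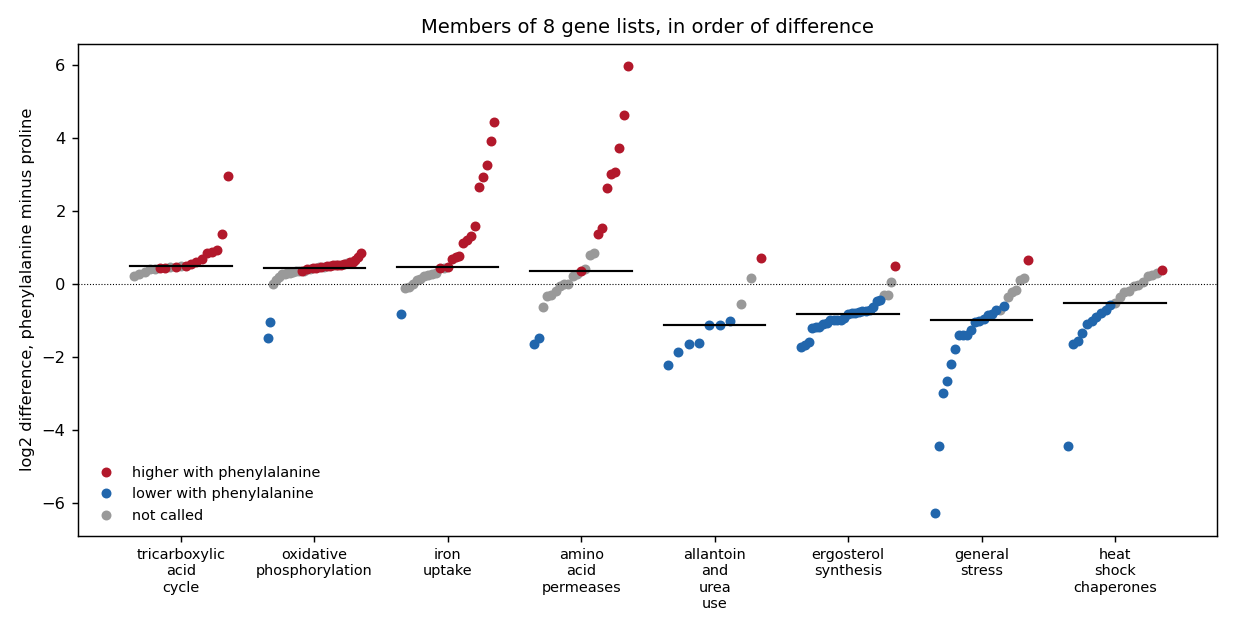
Log2 difference (phenylalanine minus proline) of every measured member of 8 lists, in order within each list, with higher calls in red, lower calls in blue, genes not called in grey and a bar at the list median. Iron and permease genes reach beyond 4, while the members for oxidative phosphorylation called higher stay below 1.

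Genes around acetyl-CoA and sugar formation split into higher and lower parts. Of 23 measured genes of the glyoxylate cycle and gluconeogenesis 8 were higher and 8 lower. PCK1, which commits oxaloacetate to gluconeogenesis, gave 172, 198 and 94.2 with phenylalanine and 1196, 1003 and 1069 with proline, 7.36-fold lower (adjusted p = 6.6e-08). FBP1, fructose-1,6-bisphosphatase, gave 95.1, 62.4 and 78.7 with phenylalanine and 389, 346 and 335 with proline, 4.59-fold lower, and MDH2, cytosolic malate dehydrogenase, was 2.20-fold lower. On the other side MLS1, malate synthase, rose 3.23-fold, with 1357, 1647 and 1197 on the phenylalanine arrays and 450.1, 408 and 432 on the proline arrays. ICL2, a mitochondrial lyase that splits 2-methylisocitrate, rose 3.12-fold, with 1176, 1211 and 1265 on the phenylalanine arrays and 401, 379 and 388 on the proline arrays. Besides ICL2 and MLS1 the higher genes were AGX1, CAT2, CAT8, CRC1, YAT1 and YAT2, which include carnitine acetyltransferases and the carnitine carrier.

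Sugar transporters changed in both directions, 5 of 15 measured genes higher and 2 lower. HXT5, a hexose transporter of slowly growing cells, gave 83.1, 80.2 and 22.5 with phenylalanine and 1246, 1537 and 1251 with proline, 25.2-fold lower (adjusted p = 2.1e-07). HXT2, a high-affinity transporter, gave 639, 718 and 456 with phenylalanine and 1624, 1711 and 2004 with proline, 2.99-fold lower. RGT2, a glucose sensor gene, was 1.84-fold higher and HXT10 at least 4.22-fold higher. The HXT10 call was lost in 2 alternatives, the hybridisation control as a covariate among them. Of 17 glycolytic genes 2 were higher (0 without phenylalanine array 3 or proline array 1 or 2, and 1 without proline array 3) and 4 lower (2 without proline array 2, 1 with median centring). The largest was TDH1, a glyceraldehyde-3-phosphate dehydrogenase, 1.73-fold lower. Of 18 genes of trehalose and glycogen 4 were lower and 0 higher by limma, and 2 were higher at an unadjusted p under 0.05. Without phenylalanine array 3 the 4 became 2.

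Stress genes were widely lower with phenylalanine. Of 24 measured genes of the general stress response 17 were lower and 1 higher (0 when any array but phenylalanine array 3 was left out), with a median log2 difference of -0.99. GRE1, which encodes a hydrophilin, a small protein induced by drying and osmotic stress, gave 26.1, 26.5 and 18.9 with phenylalanine and 1621, 1899 and 1997 with proline. It had the largest decrease of the genes with both means above 10.0, 77.8-fold (log2 -6.28 ± 0.18, adjusted p = 2.5e-12). CTT1, cytosolic catalase, gave 8.8, 8.5 and 6.6 with phenylalanine and 62.5, 40.4 and 47.9 with proline, at least 4.95-fold lower.

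Of the 21 heat shock chaperones 10 were lower and 1, HSP60, was higher. The higher count was 0 without phenylalanine array 3 or proline array 1 or 2, and 2 without phenylalanine array 2. SSA3, an Hsp70 chaperone induced by stress, gave 54.2, 79.0 and 32.8 with phenylalanine and 1075, 1143 and 1164 with proline, 21.7-fold lower. SSE2 was 2.97-fold lower, SSA4 2.54-fold lower and HSP30, a membrane stress protein, 3.16-fold lower. Of 29 genes of the oxidative stress response 11 were lower and 2 higher, with 5 higher without phenylalanine array 2 and 1 without proline array 2. TSA2, a peroxiredoxin, gave 31.4, 63.9 and 38.3 with phenylalanine and 366, 306 and 335 with proline, 7.87-fold lower, and AHP1, another peroxiredoxin, was 3.30-fold lower with more spread among its phenylalanine arrays. With the hybridisation control as a covariate 7 of the 29 were lower. GRE1 and SSA3 were low with leucine and methionine too: GRE1 averaged 20.9 ± 2.52 and 16.3 ± 2.06 there, against 1797 ± 360.0 with asparagine (SD, n = 3 each).

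The genes of ergosterol synthesis, the pathway to the main sterol of yeast membranes, were lower almost throughout. Of 27 measured 23 were lower and 1 higher, with a median log2 difference of -0.83, and the lower ones ranged from 1.35-fold to 3.28-fold. ERG5, a C-22 sterol desaturase, gave 232, 263 and 200.2 with phenylalanine and 656, 701 and 719.6 with proline, 3.00-fold lower (adjusted p = 1.2e-07). ERG1, squalene epoxidase, gave 553, 567 and 560.2 with phenylalanine and 1168, 1112 and 1057 with proline, 1.98-fold lower. ERG25 and ERG26, which remove the C-4 methyl groups together with the scaffold protein ERG28, were 1.98-fold and 2.30-fold lower, and ERG28 was 2.28-fold lower. None of these 5 genes overlapped between the groups or lost its call in an alternative. Of all 5384 genes, 1192 had every phenylalanine array below every proline array. The 1 higher gene was HMG2, a hydroxymethylglutaryl-CoA reductase, with an adjusted p of 0.050, a call lost without phenylalanine array 2 or 3 or proline array 1 or 2. Across the alternatives 16 to 24 of the 27 were lower.

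Of 17 measured genes in a list of seripauperins, mannoproteins and other genes that oxygen represses, 8 were lower and 1 higher. The wall mannoproteins are 9 of the 17, of which 7 were lower and 1, TIR2, was higher, a call lost without phenylalanine array 2 or proline array 1 or 3. The remaining lower gene was CYC7, the cytochrome c counted above with the respiratory chain. DAN1 gave 2.3, 9.9 and 0.4 with phenylalanine and 93.7, 76.4 and 79.0 with proline, at least 8.27-fold lower. TIR4 was 4.20-fold lower at 73.1, 90.1 and 40.1, against 295, 276 and 239.9 with proline. PAU3, PAU4 and PAU7 were 15.5-fold, 3.50-fold and 11.1-fold lower, but the seripauperins are close copies and their probe sets share sequence, so their values may mix several genes. Other wall proteins included HPF1, a mannoprotein, at 50.5, 63.9 and 35.6 with phenylalanine and 639, 590.3 and 732 with proline, 13.4-fold lower, and PIR3, at 140.0, 59.8 and 42.5 with phenylalanine and 547, 705 and 464 with proline, 7.96-fold lower. Of 34 wall genes 6 were higher and 8 lower, and without proline array 1 these were 1 and 5. Without phenylalanine array 3 they were 3 and 5. The higher count was also 3 without phenylalanine array 2 and 1 without proline array 3.

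Iron uptake genes were higher. Of 25 measured 14 were higher and 1, the low-affinity transporter FET4, was lower, with a median log2 difference of 0.45. The call of FET4 was lost in 17 alternatives, among them those that leave out any of the 6 arrays but phenylalanine array 3. FIT2 and FIT3, mannoproteins that hold siderophores in the wall, gave 1786, 1884 and 2086 and 3655, 4538 and 3843 with phenylalanine. With proline FIT2 gave 92.1, 87.3 and 87.3 and FIT3 270.4, 269 and 253, so that FIT2 was 21.5-fold and FIT3 15.1-fold higher. SIT1, a siderophore transporter, gave 929.5, 882 and 827 with phenylalanine and 91.6, 91.8 and 92.4 with proline, 9.56-fold higher. FET3, the multicopper oxidase of reductive uptake, gave 443, 280.4 and 325 with phenylalanine and 57.7, 49.5 and 57.1 with proline, 6.28-fold higher, and CCC2, which loads copper into it, was 2.50-fold higher. FRE5, a putative reductase, was near the bottom of the scale with proline and was at least 1.59-fold higher. FIT2 was low with proline beside all other sources, at a mean of 1636 with leucine, 1068 with methionine and 296 with asparagine.

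Of 7 measured copper genes 3 were lower and 0 higher by limma (0 at an unadjusted p under 0.05), and of 12 genes of zinc limitation 3 were lower and 1 higher. Of the zinc genes 5 were lower without phenylalanine array 1 or 2 and 1 with the hybridisation control as a covariate, and the higher count was 0 without phenylalanine array 1 or proline array 1 and 2 without phenylalanine array 2. CTR3, a high-affinity copper transporter, gave 132, 104 and 151 with phenylalanine and 902, 949 and 871 with proline, 7.10-fold lower (adjusted p = 3.8e-08). CTR1, its counterpart, was 2.52-fold lower at 128, 59.5 and 158, against 282, 261 and 260.5 with proline, a call lost with the actin ratio as a covariate. ZRT1, the high-affinity zinc transporter, gave 82.7, 123 and 69.1 with phenylalanine and 419, 438 and 447 with proline, 4.89-fold lower, and 1 of its 3 other probe sets was not called. ZRT2, the low-affinity one, was 2.21-fold lower, a call lost with the hybridisation control as a covariate.

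Of 20 measured phosphate genes 7 were lower and 0 higher by limma, with 1 higher at an unadjusted p under 0.05. PHO84, the high-affinity phosphate transporter, gave 9.4, 16.1 and 10.4 with phenylalanine and 152, 117 and 262 with proline, 14.4-fold lower. PHO89, a sodium phosphate cotransporter, was 4.93-fold lower. The count of 7 was 3 with the hybridisation control as a covariate, and 4 without phenylalanine array 3 or without proline array 3. THI4, which makes the thiazole of thiamine, gave 51.6, 46.9 and 36.6 with phenylalanine and 114, 121 and 171 with proline, 2.98-fold lower. Of 33 genes of sulfur assimilation 3 were higher, among them SUL2, a sulfate permease at 1.88-fold, and 2 were lower (1 without proline array 1). Among all genes 8.12% were higher and 14.3% lower.

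Of 81 cytosolic ribosomal protein genes 5 were higher and 1 lower (26 and 3 at an unadjusted p under 0.05), with a median log2 difference of 0.27, and 30 of their probe sets share sequence with other genes. The shares of all genes by adjusted p were 8.12% higher and 14.3% lower. The count of higher cytosolic ribosomal protein genes was 0 without proline array 1 and 21 without phenylalanine array 2. It ran between these over the other alternatives. Of 32 proteasome genes 10 were lower and 0 higher by limma, with RPN4, their activator, 1.81-fold lower at 263, 338 and 226, against 468, 481 and 536 with proline. With median centring 3 of the 32 were lower, and without proline array 1 or 3 there were 6. At an unadjusted p under 0.05, for which the share of all genes is not given, 19 were lower and 0 higher. Of 38 ribosome assembly genes 4 were lower, 1 without proline array 2 and 2 without proline array 3 or phenylalanine array 2 or 3. Pheromone and a-specific genes held 6 higher and 2 lower of 23, with MFA2, which encodes a-factor, at 1674, 1431 and 3636 with phenylalanine and 606, 767 and 741 with proline, and BAR1, the protease that degrades alpha-factor, 2.34-fold higher. With the hybridisation control as a covariate 2 of the 23 were higher, MFA2 not among them.

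Genes outside these lists completed the largest differences. Upward, IMD2, IMP dehydrogenase of guanine nucleotide synthesis, rose 6.57-fold, to 1455, 2088 and 1881, against 246, 257 and 319.8 with proline, on a probe set that shares sequence with its family. ATR2 was at least 6.46-fold higher. Downward, SHH3, a paralogue of the SDH3 subunit of succinate dehydrogenase, gave 27.7, 50.0 and 16.4 with phenylalanine and 588, 742 and 796 with proline, 24.8-fold lower. PMA2, a minor plasma membrane proton ATPase, gave 43.8, 41.4 and 30.2 with phenylalanine and 669, 807 and 455 with proline, 16.5-fold lower. TKL2, a minor transketolase, was 12.3-fold lower and FMP45, a membrane protein of the cell cortex, 15.6-fold lower. FDH1, formate dehydrogenase, was 16.0-fold lower on a probe set with shared sequence. For these genes the groups did not overlap, as the rule for naming them required.

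The other 3 sources place the 2 levels. For each gene the mean with another source was nearer to the phenylalanine mean or to the proline mean. Of the 367 genes that changed at least 2-fold, the asparagine mean was nearer to proline for 79.6%, against 60.0% of all genes. The leucine mean was nearer to phenylalanine for 74.1% of them, against 51.2% of all genes, and the methionine mean for 65.7%, against 50.4%. The genes were chosen on the difference between the 2 sources, so these shares are a description.

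**Figure D5:**
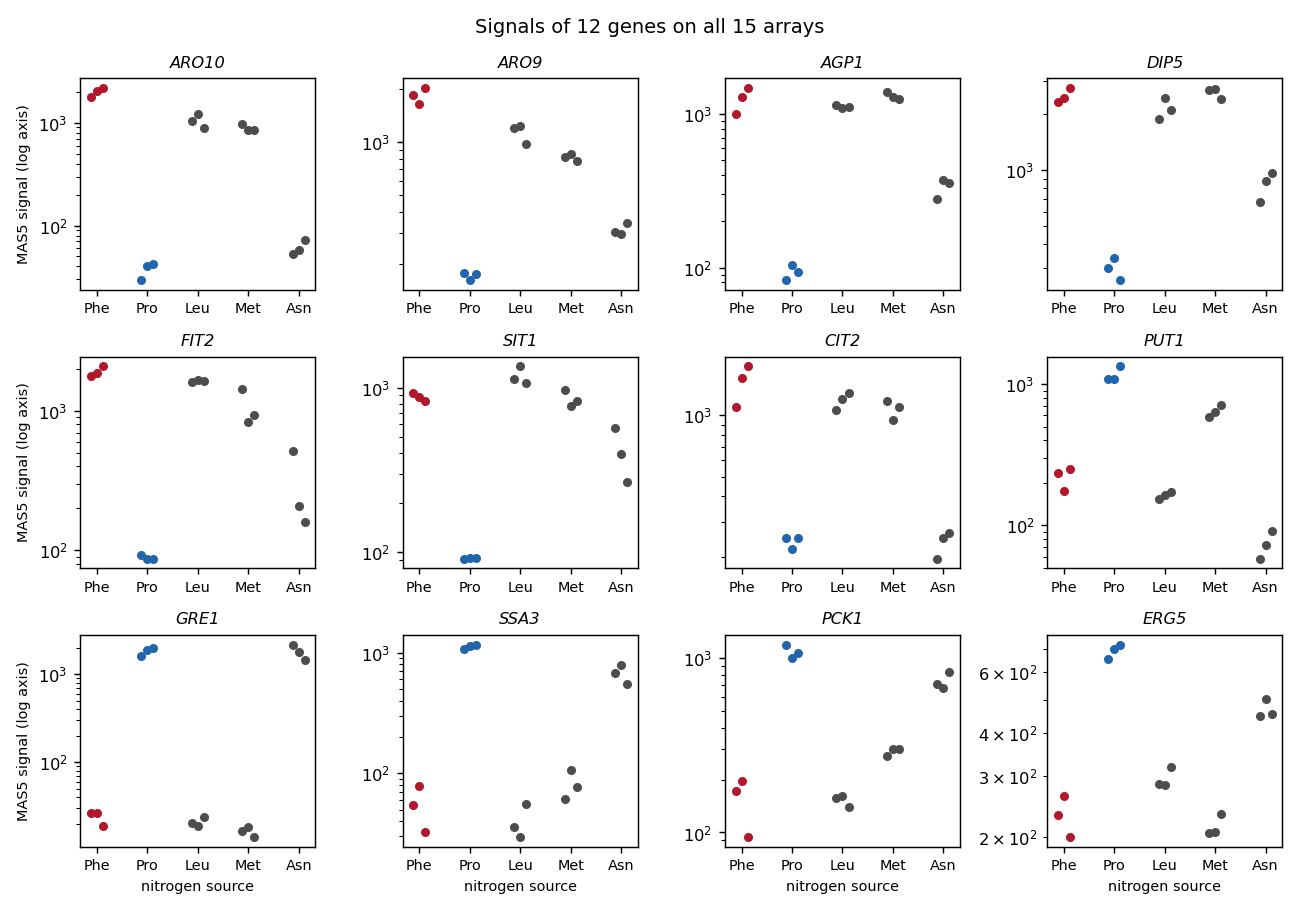
MAS5 signal on each of the 15 arrays, on log axes, for 12 genes with phenylalanine (red), proline (blue), leucine, methionine and asparagine (grey). The asparagine arrays lie near the proline arrays for GRE1, SSA3 and PCK1, and the leucine and methionine arrays lie near the phenylalanine arrays for AGP1, SIT1 and GRE1.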

How the data were processed

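Affymetrix YG_S98 arrays of polyA RNA were analysed, 1 colour, 3 per nitrogen source. Each deposited value is the linear intensity of a probe set on an array. Per the submitters' processing notes, the authors computed these with MAS5, and the scaling target is not given in the sources used here. After removing the top and bottom 2% of each array, means were nearly equal, so the authors' values had been scaled globally, and the file holds no detection flags. The labels do not say that the triplicates were separate cultures, and p-values then measure only a spread between arrays that may be technical.

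Leaving out 60 controls of the 9335 probe sets kept 9275, of which the platform annotation gives 1 gene to 6504 (all in RefSeq), several to 328 and none to 2443. Values under 2.1, the 10th percentile, were raised to it before taking log2. A probe set was tested if 3 or more arrays had it above their 25th percentile, which left 7445, and the suffix of 1234 marks shared sequence. A gene was represented by its brightest tested probe set (5384 genes). Of 270 genes with several, 56 were called, and for 29 of these another probe set was not so called. The floor makes folds of dim genes too small. A group mean of 10.0 or less was replaced by 10.0, and the fold is then written as at least that ratio.

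limma 3.58.1 in R 4.3.3 fitted the 5 source means to all 15 arrays together (lmFit, then eBayes with a variance trend), 2-sided, with Benjamini-Hochberg adjustment over all probe sets and a threshold of 0.05. The groups share 1 estimate of the spread per probe set. The median standard deviation was 0.30 with phenylalanine but 0.16 to 0.20 with the other sources. The shared spread can therefore be too small for the phenylalanine arrays, and the adjusted p too small. In simulated data (7445 probe sets), 76.3% of 2-fold and 98.1% of 4-fold changes were recovered with 11 false calls. The simulated noise was independent, with 1 spread per probe set shared by all groups, and only brighter probe sets were changed. The real arrays had a median standard deviation of 0.30 with phenylalanine and 0.17 with proline. These figures therefore check the fit and are not error rates of the real comparison. The members and the 46 gene lists were chosen with earlier results of these data known, and lists were described by counts and medians only. Counts at an unadjusted p under 0.05 stand without the share of all genes at that threshold. Genes named with values are the 15 largest differences each way with groups that do not overlap, all of 3 lists, up to 5 of every other list by adjusted p, and key genes. Exceptions are HMG2, HSP60, FET4, TIR2 and other genes named only to spell out a count, which were singled out after their values were seen, and the genes so marked under the other observations. Alternatives were 2 other scalings (median centring, quantile), changed floors and filters, no variance trend, weights for arrays, the 6 arrays alone, the replicate number as a block, 4 technical covariates and leaving out each array. Leaving out phenylalanine arrays 1 and 3 together was added after the data were seen. Promoter sequences were not analysed here.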

Additional observations from a re-analysis of the deposited data

How the results depend on the processing

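Against 1552 probe sets called (610 higher, 942 lower), the count was 720 (258 and 462) when only the 6 arrays were fitted, 904 (367 and 537) with the actin ratio as a covariate and 572 (241 and 331) with the hybridisation control signal as a covariate. The other 2 covariates left 1317 (SPT15 ratio) and 1417 (rRNA control signal). The hybridisation control signals did not overlap between the groups, so their part cannot be told apart from that of the source. What lowers these counts was not tested. Median centring turned the split to 1007 higher and 589 lower. Requiring at least 2-fold left 559 (177 and 382). Leaving out 1 array gave 1042 to 1837 called, 403 to 670 higher and 639 to 1167 lower, with the lowest total without proline array 1 and the highest without phenylalanine array 2. Leaving out phenylalanine arrays 1 and 3, an alternative chosen after seeing the data in which 1 array is assumed to vary like the other groups, gave 1144 called (559 and 585). Replicate numbers were shared between the groups, but array pairs of the same number deviated together only weakly (correlations of 0.10, 0.13 and 0.18, the first under the limit of 0.1 before rounding), so the numbers were not taken as a pairing, although each array correlated best with its own number. With the replicate block 1560 were called (602 higher, 958 lower). The remaining settings left the totals within 1.5 times of these. Of 188 named probe sets called, 117 kept their call in every alternative and 71 lost it in at least 1, and no alternative turned the sign of a call. Probe sets near 10.0 limit the fold that can be given.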

Other observations

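The genes in these paragraphs were chosen after their values were seen. Paralogues of succinate dehydrogenase subunits were lower with phenylalanine while the main subunit genes SDH1, SDH2 and SDH4 were higher. SDH3, whose paralogue is SHH3, is not among the 12 cycle genes called higher. SDH9, a paralogue of SDH1, gave 37.9, 44.2 and 27.9 with phenylalanine and 216, 226 and 248 with proline, and was 6.37-fold lower (limma, adjusted p = 6.6e-08). SHH4, a paralogue of SDH4, gave 56.8, 85.9 and 93.6 with phenylalanine and 265, 370.1 and 271 with proline and was 3.87-fold lower, next to 24.8-fold for SHH3. SDH1 itself gave 924, 969 and 879.7 with phenylalanine and 668, 762 and 639 with proline and was 1.34-fold higher. The 3 enzymes of the 2-methylcitrate cycle, which handles propionyl-CoA, were all higher: beside CIT3 and ICL2, PDH1, the methylcitrate dehydratase, gave 1749, 423 and 1604 with phenylalanine and 99.9, 235 and 372 with proline, with a wide spread in both groups (5.14-fold, adjusted p = 0.0098).

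Small nucleolar RNAs, which guide the modification of ribosomal RNA and mostly carry no poly(A) tail, were lower with phenylalanine. By the RefSeq gene classes 11 of 34 measured were lower (32.4%) and 0 higher by limma (1 at an unadjusted p under 0.05), with a median log2 difference of -0.48, against 14.3% lower and 8.29% higher of 5258 protein-coding genes. SNR55 gave 18.6, 17.5 and 17.7 with phenylalanine and 64.2, 78.0 and 81.1 with proline, 4.13-fold lower (adjusted p = 5.9e-07). SNR41 gave 24.8, 25.4 and 20.7 with phenylalanine and 72.1, 71.9 and 58.1 with proline, 2.85-fold lower. Neither RNA overlapped between the groups. The control probe sets for ribosomal RNA gave a geometric mean of 25.2, 8.57 and 47.5 with phenylalanine and 23.6, 44.6 and 96.8 with proline. With that signal as a covariate the count lower was 10. It was 4 with the hybridisation control signal as a covariate. It was 4 lower and 3 higher both with the SPT15 ratio, another measure of RNA integrity, as a covariate and without phenylalanine arrays 1 and 3. Leaving out 1 array gave 6 lower (without phenylalanine array 3) to 16 lower (without phenylalanine array 2).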
